A study of Mus musculus with 12 samples.

Results

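The cytosolic ribosomal protein genes were taken as the genes whose array probe sets carry a single symbol beginning with Rpl or Rps and a number, or with Rplp or Rpsa, without the Rps6k kinases, pseudogenes and mitochondrial ribosomal genes. This gave 50 genes of 18193 with a probe set of 1 symbol, measured by 106 probe sets, of which the brightest on average stood for each gene. They comprised 22 genes of the large (60S) subunit, 21 of the small (40S) subunit, 6 paralogues (Rpl3l, Rpl7l1, Rpl22l1, Rpl39l, Rps4l and Rps27l) and 1 gene that matches the naming rule but encodes a nucleolar binding partner of a ribosomal protein, Rps19bp1. A further 31 genes with such names, among them Rpl3, Rpl5 and Rplp1, were represented only by probe sets that list several symbols and were not counted as members.

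Muscle RNA came from 12 mice aged 16 weeks on a mixed 129/Sv and C57BL/6 background, hybridised to 1 Affymetrix array each. The 4 groups, of 3 mice each, were wild type (WT) on a normal diet (ND), WT on a high fat diet (HFD), GPR120 knockout (KO) on ND and KO on HFD. GPR120, the product of Ffar4, senses long-chain fatty acids at the cell membrane. The sources used here do not give the muscle taken, the sex of the mice, the time on HFD or how the KO was made. Each group's mouse numbers form a run of their own, and group and cohort cannot be told apart.

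The ribosome is built from ribosomal RNA and about equal numbers of each ribosomal protein, and the genes for these proteins are among the most strongly transcribed in most tissues. Their mRNAs typically begin with a C followed by a run of C and T bases, the 5′ terminal oligopyrimidine (TOP) motif, through which the kinase mTORC1 and the RNA-binding protein LARP1 control translation. That control acts on translation of the mRNA, which an array of total RNA does not measure.

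The start regions of 6 members are printed to show this motif beside genes that recur in the results: Rps6 and Rpl12, the members with the adjusted calls; Rpl38, Rplp2 and Rps18, with start-site runs; and the muscle paralogue Rpl3l, without one. Each is 60 bases before the annotated start and 15 bases from it on, from RefSeq (GRCm38.p6), on the gene's own strand. Capitals mark a run of at least 8 C or T bases that overlaps the 21 bases centred on the start, and, in Rpl38, also an upstream CCGGAAG, a core sequence bound by ETS-family factors. The positions are chr4:86857353-86857427 (minus strand) for Rps6, chr2:32961652-32961726 (plus) for Rpl12, chr11:114668520-114668594 (plus) for Rpl38, chr7:141447591-141447665 (plus) for Rplp2, chr17:33955651-33955725 (minus) for Rps18 and chr17:24727766-24727840 (plus) for Rpl3l.
Rps6: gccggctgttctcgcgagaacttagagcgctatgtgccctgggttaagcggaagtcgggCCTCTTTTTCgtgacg
Rpl12: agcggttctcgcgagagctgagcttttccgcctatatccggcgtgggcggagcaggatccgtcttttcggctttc
Rpl38: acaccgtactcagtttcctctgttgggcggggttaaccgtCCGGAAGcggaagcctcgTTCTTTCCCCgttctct
Rplp2: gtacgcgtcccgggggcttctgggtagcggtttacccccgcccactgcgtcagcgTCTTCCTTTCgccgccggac
Rps18: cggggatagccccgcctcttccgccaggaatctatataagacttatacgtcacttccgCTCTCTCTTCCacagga
Rpl3l: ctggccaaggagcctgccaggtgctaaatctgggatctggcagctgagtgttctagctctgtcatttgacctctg

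A start region was found for 44 of the 50 members, all but Rps29, Rps20, Rps14, Rpl7, Rpl8 and Rps4l. A C or T run of at least 8 bases overlapped the start window in 20 of 44 members (45.5%), against 16.1% of 27025 genes with a start region and 17.5% of those tested here. The stricter form, a C exactly at the annotated start followed by 4 C or T bases, was found in 8 of 44 members (18.2%) and in 3.01% of all genes. Rps6, Rpl38, Rplp2 and Rps18 had it; Rpl12 has a run of 7 bases and Rpl3l of 5. CCGGAAG or its reverse complement CTTCCGG occurred on either strand in the 250 bases before the start in 17 of 44 members (38.6%), against 7.83% of all genes and 15.4% of those tested; in Rps6, Rplp2 and Rps18 the copy lies upstream of the bases printed. Run length and window were chosen after the members' start sequences were seen, and these matches are descriptions of sequence, not of binding.

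Values were log2 MAS5 signals, a scale on which 1 unit is a 2-fold difference. Array medians ran from 3.87 to 4.16. All 11 skeletal muscle markers passed the signal filter, a mean log2 value above 3.78. The single probe set of Ffar4, the targeted gene, averaged 1.61, below that filter, with single arrays from -1.39 to 3.88 and overlapping genotypes, so it does not check the genotype labels. In muscle tissue, fewer cells of a type and less RNA per cell cannot be told apart.

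Of the 50 members, 49 passed the filter, and the exception was Rps16, whose probe set averaged -0.998. A probe set's signal depends on its probes as well as its mRNA, so levels are not ranked between genes, and a low value for a gene whose product every ribosome contains need not mean little mRNA. The members fell into 2 ranges. In the upper, 37 averaged between 11.36 and 13.48, at or above the 98.466th percentile of all probe sets. The other 12 that passed averaged 9.09 or less. The division at 11 was set after the values were seen.

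The 37 bright members varied little. Between the lowest and the highest of the 12 arrays, their signals spanned 0.19 to 0.64 on the log2 scale, with a median span of 0.30. Rpl7 had the narrowest span, 1.14-fold, and Rps26, whose product lines the mRNA exit channel, the widest, 1.56-fold. The median SD within groups was 0.083 for the bright members, 0.106 for the 480 other genes with a mean above 11 and 0.241 for all 11345 genes tested. Among the 12 dim members it was 0.240, and the largest were those of Rps27 (0.83), Rpl39 (0.71) and its paralogue Rpl39l (0.65).

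What variation there was ran largely in common through the bright members. After group means were removed, the first principal component held 53.8% of their variance, and the median correlation between members was 0.50 over 666 pairs, a description over genes that share the same 12 arrays. The array of WT mouse 3 on HFD (mice are numbered 1 to 3 within a group) lay above the gene's own mean for all 37 bright members, with a median of 0.16, and was the highest of 12 for 30 of them. KO mouse 1 on ND lay above the mean for 0 of 37, with a median of -0.08. The 480 other bright genes had medians of 0.13 and -0.06 on the same 2 arrays, so the deviation was shared with other bright probe sets.

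**Figure D1:**
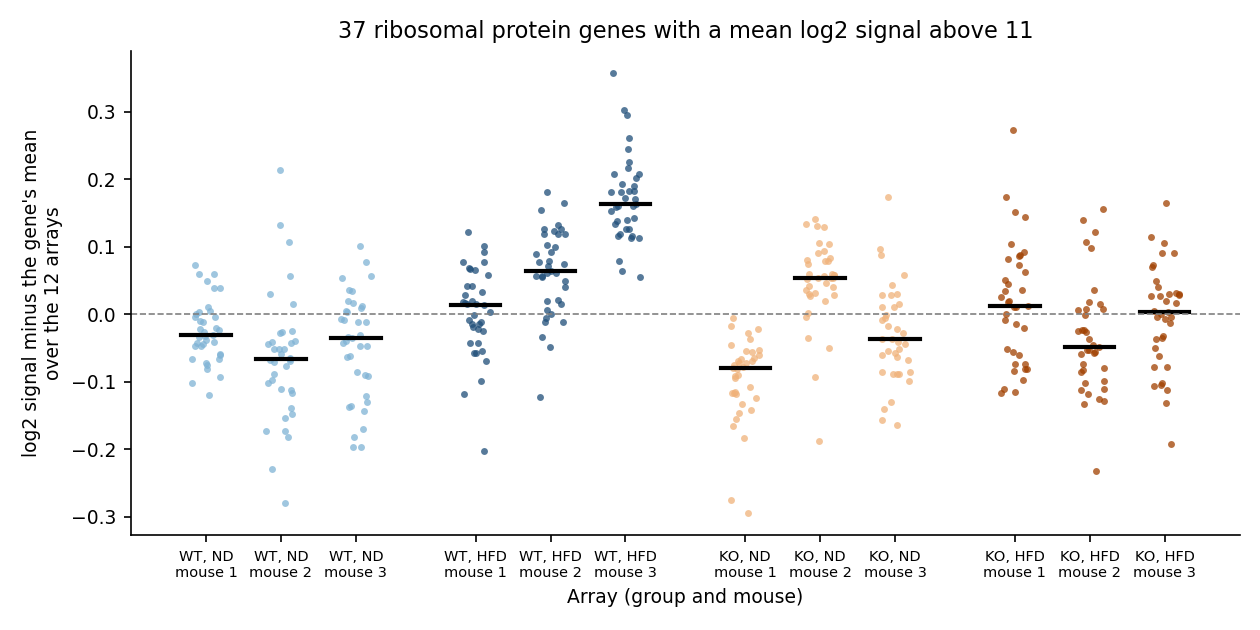
Each point is 1 of the 37 ribosomal protein genes with a mean log2 signal above 11 on 1 array, as its log2 signal minus the gene's own mean over the 12 arrays; black bars are medians over the genes. WT mouse 3 on HFD has all 37 points above 0, with a median of 0.16, and KO mouse 1 on ND has none above 0, with a median of -0.08.

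In WT muscle, HFD against ND, no member passed the test (0 of 49 at an adjusted p of 0.05, limma, Benjamini-Hochberg over 11345 genes), where 6.06% of all genes did. At an unadjusted p of 0.05, 12 members passed, close to the 23% of all genes. The differences were small and mostly of 1 sign: the median member was 0.12 higher on HFD, with 41 of 49 above 0, against a median of 0.04 over all genes. In 21 members all 3 HFD arrays were above all 3 ND arrays, against 15.7% of all genes in that direction, and in 0 members were they below, against 11.1%. With quantile normalization the median member difference was 0.04, against 0.05 for all genes. The 21 became 5, against 15.5% of all genes, so this common shift was not seen under that scaling. Without WT mouse 3 on HFD the median was 0.09.

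The shift lay in the bright members, whose median diet difference in WT was 0.13, with 34 of 37 above 0, against 0.02 for the 12 dim members. The 480 other genes above 11 had a median of 0.15. All 3 HFD arrays were above all 3 ND arrays in 54.1% of the bright members and 45.8% of these other bright genes. The 95% intervals of the 37 bright members reached from -0.39 to 0.58 at their outermost, so that no bright member's interval extended to a 2-fold change in signal. The highest log2 signals of the single arrays were 13.81 to 14.08, and whether signals near that top are compressed was not tested. The 3′ over 5′ ratio of the beta-actin and Gapdh control probe sets is a measure of RNA integrity and of labelling. Its mean on the log2 scale was -0.02 ± 0.09 (SD, n = 3) on ND and 0.18 ± 0.02 on HFD in WT. With that log2 ratio as a covariate the median member difference stayed at 0.12.

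Among the small subunit genes, Rps26 gave 12.01, 11.76 and 11.87 on the WT ND arrays and 12.03, 12.22 and 12.40 on the WT HFD arrays. The groups narrowly did not overlap, and the difference of 0.34 ± 0.12 (SE) did not pass (limma adjusted p = 0.102). Rps19, a small subunit protein needed for maturation of 18S ribosomal RNA, gave 11.29, 11.31 and 11.22 against 11.46, 11.45 and 11.47, a tight separation with a difference of 0.19 ± 0.07 (limma adjusted p = 0.148). Rpsa, the small subunit protein also known as the laminin receptor, gave 12.01, 12.02 and 12.02 against 12.08, 12.06 and 12.26. The third HFD array stood highest, and the difference was 0.12 ± 0.08 (limma adjusted p = 0.416).

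Among the large subunit genes, 2 belong to the stalk, which recruits elongation factors. Rplp2 gave 12.81, 12.79 and 12.71 on the WT ND arrays and 12.82, 12.96 and 13.01 on the WT HFD arrays, a difference of 0.16 ± 0.08 (limma adjusted p = 0.233). Rplp0 gave 12.81, 12.85 and 12.82 against 12.68, 12.80 and 13.05, with overlapping groups and a difference of 0.01 ± 0.08. Rpl38, a surface protein of the large subunit, gave 12.86, 12.78 and 12.84 against 12.88, 13.00 and 13.09 (0.16 ± 0.07, limma adjusted p = 0.201). Rpl11, which binds Mdm2 when ribosome assembly fails, had overlapping groups and differences of 0.13 ± 0.09 in WT and 0.12 ± 0.09 in KO.

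Of the paralogues, Rpl3l is a striated-muscle form of Rpl3, and Rps27l a p53-inducible form of Rps27. Rps27l gave 11.59, 11.50 and 11.58 in WT on ND and 11.74, 11.79 and 11.85 on HFD, without overlap, a difference of 0.24 ± 0.08 (limma adjusted p = 0.083). Its 3 probe sets gave 0.24, 0.22 and 0.28. Rpl3l gave 11.86, 11.76 and 11.71 on ND and 11.88, 11.99 and 12.19 on HFD, a difference of 0.24 ± 0.09 (limma adjusted p = 0.110). Neither passed, and in KO muscle the diet differences were 0.07 ± 0.08 for Rps27l and -0.01 ± 0.09 for Rpl3l.

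The remaining paralogues were set beside their parents where both were members. Rpl22l1 had a diet difference in WT of -0.06 ± 0.15 and Rpl22 of 0.16 ± 0.08; Rpl7l1 had 0.00 ± 0.16 and Rpl7 0.10 ± 0.07. Rps4l had 0.42 ± 0.32 and its X-linked parent Rps4x 0.18 ± 0.07, and Rpl39l had -0.03 ± 0.47 and Rpl39 0.04 ± 0.47. None of these passed the test, and the intervals of the dim paralogues were wide. Rps27, the parent of Rps27l, had the largest difference of any member in WT, -1.33 ± 0.54, on a dim probe set: its ND arrays gave 7.47, 6.63 and 5.25 and its HFD arrays 5.41, 4.70 and 5.24. These groups overlapped, and the difference did not pass (limma adjusted p = 0.163).

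**Figure D2:**
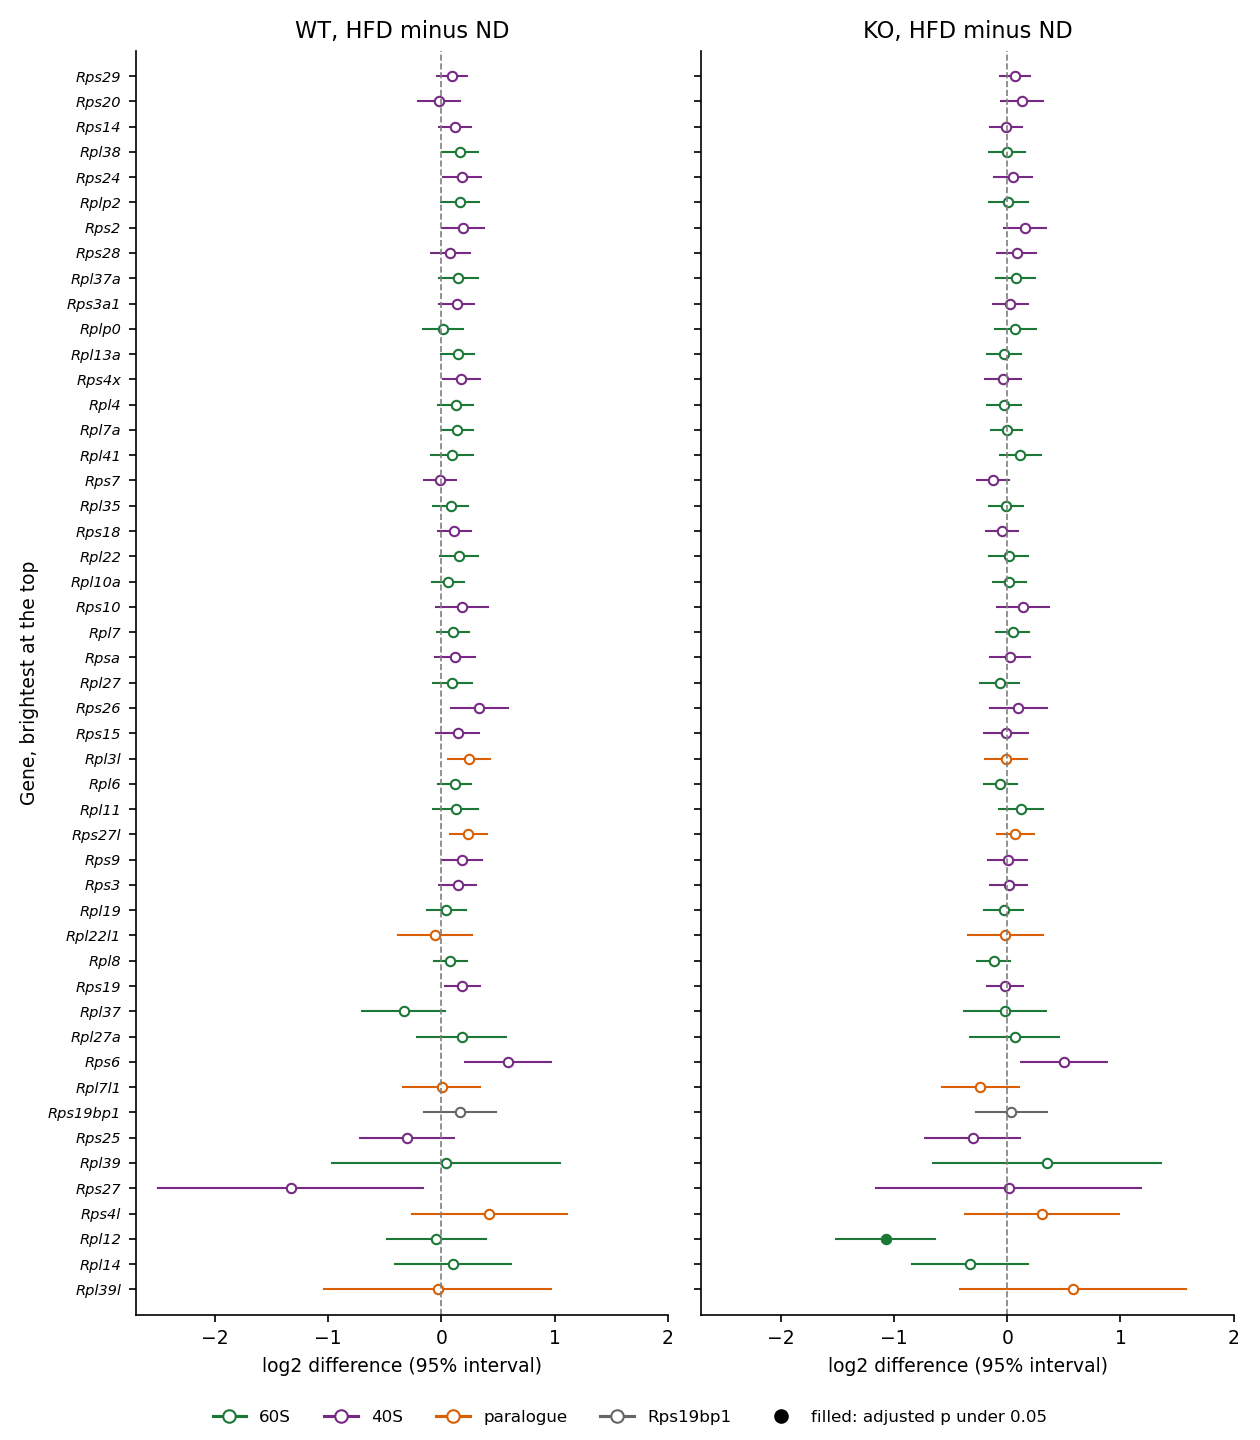
Log2 difference, HFD minus ND, of the 49 members that passed the filter, in WT (left) and KO (right), with 95% intervals, ordered by mean signal and coloured by subunit. Filled points passed at an adjusted p of 0.05, which only Rpl12 in KO did; the bright members at the top lie close to 0 in both genotypes, mostly on its right side in WT.

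In KO muscle, HFD against ND, 1 of 49 members passed, Rpl12, which was lower, where 4.54% of all genes passed. The median member difference was 0.01, with 27 of 49 above 0, against 0.05 for all genes, and its sign turned with median centring of the arrays (-0.03), with the mean of all probe sets per gene (-0.01) and without KO mouse 1 on ND (-0.03). All 3 HFD arrays were above all 3 ND arrays in 1 member, Rps6, against 16.3% of all genes, and below them in 4, Rps7, Rpl8, Rpl12 and Rpl14, against 10.2%. For the 37 bright members the outermost 95% bounds were -0.34 and 0.37. The 2 diet comparisons share no arrays, and the interaction, which tests whether they differ, called 0 of 49 members (0.141% of all genes), with 1 member at an unadjusted p of 0.05, against 10.4% of all genes. Its median over members was -0.12 against 0.01 for all genes, and 40 of 49 members were below 0; the 480 other genes above 11 had a median of -0.11. The member median was -0.06 with quantile normalization and -0.18 with median centring.

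Rpl12, a large subunit protein near the base of the stalk, had 1 probe set, with a mean of 5.52. It gave 5.46, 5.67 and 5.77 in WT on ND, 5.65, 5.51 and 5.61 in WT on HFD, 6.18, 6.10 and 5.62 in KO on ND, and 5.08, 4.74 and 4.85 in KO on HFD. The KO HFD arrays were the 3 lowest of the 12 and overlapped no other group. The diet difference in KO was -1.07 ± 0.20, or 0.475-fold (limma adjusted p = 0.012), and in WT it was -0.05 ± 0.20. The interaction was -1.03 ± 0.29 and did not pass (limma adjusted p = 0.247). The KO call was lost without KO mouse 1 on ND (limma adjusted p = 0.0559) or without KO mouse 2 on ND (limma adjusted p = 0.0621).

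Some markers of other cells passed in the same comparison. In KO, HFD against ND, 3 of the 7 tested macrophage markers (Adgre1, Lyz2 and Ctss) and 4 of the 7 fibroblast markers (Col1a1, Col1a2, Col3a1 and Postn) were higher. Of 5 adipocyte markers 1 was higher (Fabp4), and 1 of 6 endothelial markers (Flt1, -0.78 ± 0.18) was lower. Over all genes 4.54% passed in this comparison, in either direction. The summed linear signal of the macrophage markers ran from 2441 to 3279 in KO on ND and from 3932 to 6737 in KO on HFD, and that of the fibroblast markers from 9845 to 10638 and from 12655 to 17559. The adipocyte sums ran from 7088 to 11187 and from 15543 to 17192, and the endothelial sums from 985 to 1185 and from 981 to 1304. No list held a marker averaging below 0. For WT the macrophage sums were 3421 to 3814 on ND and 2067 to 4068 on HFD. Their part in the difference of Rpl12 was not tested.

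Averaged over the genotypes, the diet difference called 2 of 49 members, Rps6 higher and Rpl12 lower, where 13.7% of all genes passed. Rps6 encodes the small subunit protein that S6 kinase phosphorylates downstream of mTORC1. Its probe set, with a mean of 7.37, gave 6.85, 7.19 and 7.28 in WT on ND and 7.80, 7.79 and 7.49 on HFD, and 6.74, 7.39 and 7.14 in KO on ND and 7.61, 7.72 and 7.44 on HFD. In both genotypes every HFD array was above every ND array. The averaged difference was 0.55 ± 0.13, or 1.46-fold (limma adjusted p = 0.012), made up of 0.59 ± 0.18 in WT (limma adjusted p = 0.066) and 0.50 ± 0.18 in KO (limma adjusted p = 0.127), neither of which passed alone.

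The log2 3′ over 5′ ratio was also higher on HFD in KO, 0.07 ± 0.06 on ND and 0.16 ± 0.13 on HFD (SD, n = 3). With it as a covariate the averaged difference of Rps6 was 0.36 (limma adjusted p = 0.241). The other probe set of Rps6 averaged 2.42, below the filter, and gave diet differences of -0.16 in WT and 1.08 in KO. The averaged difference of Rpl12 was -0.56 ± 0.14 (limma adjusted p = 0.022). It was lost with no signal filter (limma adjusted p = 0.0542), with the 3′ over 5′ covariate (limma adjusted p = 0.150), under which the difference was also -0.56, and without WT mouse 2 (limma adjusted p = 0.0503) or WT mouse 3 (limma adjusted p = 0.0539) on ND or KO mouse 1 (limma adjusted p = 0.0578) or KO mouse 2 (limma adjusted p = 0.0534) on ND.

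**Figure D3:**
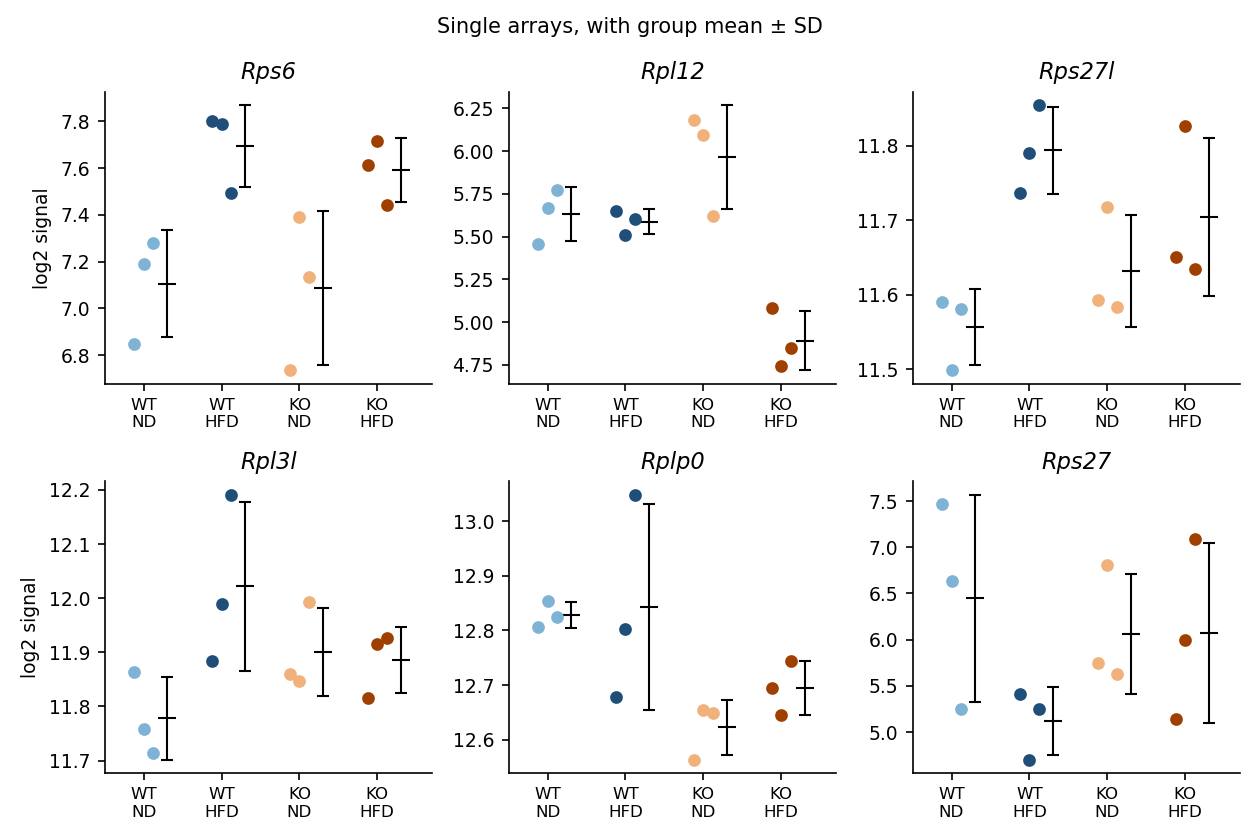
Log2 signal of 6 members on the 3 arrays of each group, with the group mean and SD as black bars; each panel has its own vertical scale. Rps6 is higher on HFD in both genotypes, Rpl12 is lowest in KO on HFD (4.74 to 5.08), and the dim Rps27 spans 4.70 to 7.47.

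On ND, KO against WT, 0 of 49 members passed, where 0.414% of all genes did, and 1 member had an unadjusted p under 0.05, against 11.3% of all genes. The median member difference was 0.02, as for all genes; it was -0.005 without KO mouse 2 on ND, 0.06 without KO mouse 1 on ND, 0.04 without WT mouse 1 on ND and 0.04 without WT mouse 3 on ND. No member had all 3 KO arrays above all 3 WT arrays, against 9.25% of genes, and 1 had them below, against 7.72%. That member was Rplp0, often used as a reference gene in muscle, with 12.81, 12.85 and 12.82 in WT and 12.56, 12.65 and 12.65 in KO, a difference of -0.21 ± 0.08 (limma adjusted p = 0.359). On HFD its arrays overlapped (KO 12.70, 12.64 and 12.74), and averaged over the diets the genotype difference was -0.18 ± 0.06, or 0.884-fold (limma adjusted p = 0.154).

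On HFD, KO against WT, 0 of 49 members passed, where 0.732% of all genes did, and 4 had an unadjusted p under 0.05, against 14.8% of all genes. The median member difference was -0.08, against 0.03 for all genes, with 39 of 49 below 0; among the 37 bright members it was -0.10, and among the 480 other bright genes -0.09. In 8 members all 3 KO arrays were below all 3 WT arrays (Rps14, Rps7, Rps18, Rps19, Rpl7a, Rpl27, Rpl8 and Rpl12), against 8.39% of all genes, and in 0 were they above, against 11%. They were below in 18.9% of the bright members and 25% of the other bright genes. That 8 became 3 with quantile normalization, against 8.8% of all genes, and 26 with median centring, against 14.9%. This comparison shares the WT HFD arrays with the diet comparison in WT; without WT mouse 3 on HFD its median was -0.05, with quantile normalization -0.03 and with median centring -0.17. In the same comparison 2 of 7 tested macrophage markers (Cd68 and Ctss) and 3 of 7 fibroblast markers (Col1a1, Col3a1 and Postn) were higher in KO. Of 5 adipocyte markers 0 passed, and their sums were 8589 to 15447 in WT and 15543 to 17192 in KO. The part of these cell types in the members' values was not tested.

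Rps14, a small subunit protein, gave 13.03, 13.03 and 13.11 in WT on HFD and 12.88, 12.84 and 12.98 in KO on HFD, without overlap, and had the lowest difference among the bright members, -0.16 ± 0.07 (limma adjusted p = 0.288). Rps18, a protein of the small subunit's head, gave 12.40, 12.35 and 12.46 against 12.25, 12.31 and 12.32 (-0.11 ± 0.07, limma adjusted p = 0.478). Rpl12 gave the lowest difference of any member, -0.70 ± 0.20, without passing (limma adjusted p = 0.123). Averaged over the diets, the genotype difference called 0 of 49 members, where 1.61% of all genes passed, with 1 at an unadjusted p of 0.05, against 15.3% of all genes, and its median over members was -0.03 against 0.02 for all genes.

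Other probe sets gave like medians. The 29 further probe sets above 11 of 17 members had median diet differences of 0.08 in WT and -0.005 in KO, and genotype differences of 0.02 on ND and -0.08 on HFD. The 74 probe sets above 11 that list several symbols with a ribosomal protein gene among them, which cover genes such as Rpl3 and Rplp1, gave 0.12, 0.01, 0.03 and -0.09 in the same order. These probe sets are on the same arrays and can share sequence with the members, so they are no separate measurement of the mice.

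Genes that build, regulate and use ribosomes were counted from 4 lists chosen with earlier results known. Of 43 tested genes for ribosome biogenesis and RNA polymerase I, 2 were lower with HFD in WT, 5 in KO and 8 averaged over the genotypes, and all that passed were lower (limma adjusted p under 0.05). Over all genes 6.06%, 4.54% and 13.7% passed in these comparisons, in either direction. The list's median diet differences were -0.08 in WT and -0.20 in KO, against 0.04 and 0.05 for all genes. Rrs1, a factor in assembly of the large subunit, fell by 0.86 ± 0.19 in WT and by 0.80 ± 0.19 in KO, and Gnl3 (nucleostemin, a nucleolar GTPase) fell by 0.53 ± 0.13 and 0.66 ± 0.13. Nop58, a box C/D small nucleolar RNA protein that guides ribosomal RNA methylation, the 40S assembly factor Tsr1 and the 60S export adaptor Nmd3 were lower in KO, and Nop14, Nop56 and Gar1 passed in the averaged comparison.

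Of 16 other listed genes whose mRNAs carry a TOP motif, Hnrnpa1 was lower with HFD in WT (-0.71 ± 0.16) and KO (-0.97 ± 0.16). Eef2, the translocation factor, was lower in KO than WT on HFD (-0.38 ± 0.08, limma adjusted p = 0.046). Median diet differences of this list were 0.15 in WT and -0.05 in KO, against 0.04 and 0.05 for all genes. Its median for genotype on HFD was -0.19, against 0.03. The other members of that list did not pass in the simple comparisons. Over all genes 6.06% passed for diet in WT, 4.54% for diet in KO and 0.732% for genotype on HFD. Of 24 initiation factors, Eif4a1, the mRNA-unwinding helicase, passed in WT with HFD (-0.46 ± 0.13), and Eif3a, Eif4a1 and Eif5 were lower on average over the genotypes. These counts, 1 and 3 of 24, are no higher than the 6.06% and 13.7% of all genes.

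Of 16 genes of mTORC1 and S6 kinase control, Eif4ebp1, whose product holds back cap-dependent initiation, was lower with HFD in WT (-0.61 ± 0.14) and KO (-0.96 ± 0.14). Myc, a transcription factor for ribosomal genes, was lower in KO (-1.17 ± 0.28), with -0.77 ± 0.28 in WT, which did not pass. Mtor, the kinase itself, was higher with HFD in WT (0.46 ± 0.11), with 0.14 ± 0.11 in KO. It was lower in KO than WT on HFD (-0.63 ± 0.11, limma adjusted p = 0.028). Averaged over the diets, Mtor was also lower in KO (-0.47 ± 0.08, limma adjusted p = 0.012). Larp1, which binds TOP mRNAs, had diet differences of 0.02 ± 0.10 and -0.02 ± 0.10. With HFD, 1 of the 16 was called higher and 1 lower in WT and 2 lower in KO, where 6.06% and 4.54% of all genes passed. For genotype on HFD it was 1 of 16, where 0.732% of all genes passed. For genotype averaged over the diets it was also 1 of 16, where 1.61% passed.

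**Figure D4:**
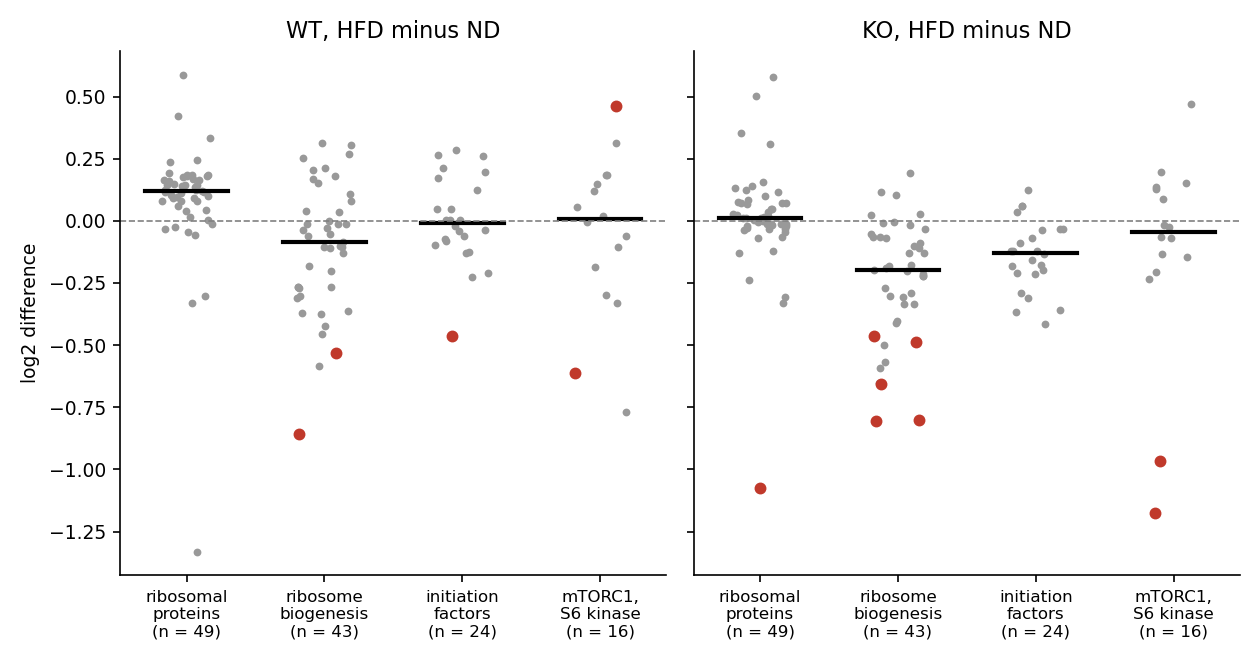
Log2 differences, HFD minus ND, in WT (left) and KO (right) for the 49 members that passed the filter and 3 of the lists. The members are labelled ribosomal proteins and include Rps19bp1. Each point is a gene, black bars are medians and red points passed at a limma adjusted p of 0.05. The ribosomal protein medians are 0.12 and 0.01 and those of ribosome biogenesis -0.08 and -0.20, where all called genes are lower.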

How the data were processed

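The authors deposited log2 signals from MAS5, as the submitters' processing notes name it, with no version given there. They were used as deposited. Of 45101 probe sets, 64 controls were set aside; 34945 of the rest carried 1 gene symbol, 932 several and 9160 none, by the platform annotation. Probe sets with a mean log2 value above the median of 3.78 (13.8 on the linear scale) were kept and the brightest per symbol stood for its gene, leaving 11345 genes. One model with a mean per group was fitted over the 12 arrays in limma 3.58.1 (R 4.3.3) with a trend on intensity (8 residual degrees of freedom and 5.42 from the prior), with 7 contrasts, each adjusted by Benjamini-Hochberg at 0.05. The procedure was tested on simulated data. Replicates are separate mice.

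The members, gene lists and markers were chosen with earlier results of these data known. Members named were those past the threshold, the brightest, dimmest and most variable, the paralogues with their parents, the stalk proteins, Rpsa, Rps6 and Rpl11. Rps26, Rps19, Rpl38, Rps18, Rps7, Rpl8, Rpl7a and Rpl27 were chosen after their values were seen. Of all these, Rps29, Rps20, Rpl14, Rps7, Rpl8, Rpl7a and Rpl27 were named without their values. The plan was to name up to 3 passing genes per list, direction and comparison, but all passing genes of the gene lists were named. Larp1 was named without passing. All markers that passed with HFD in KO, or for genotype on HFD in the macrophage and fibroblast lists, were named. Alternatives covered the filter, an offset, the scaling, the probe set choice, the variance model, the 3′ over 5′ ratio and each mouse left out. Python 3.11.15, pandas 2.3.3 and numpy 2.4.6 made the tables, and matplotlib 3.10.9 the figures.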

Additional observations from a re-analysis of the deposited data

How the results depend on the processing

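Counts of called members changed under a few settings. The shares of all genes called under each setting are not given here. A changed count can therefore not be told from a change over all genes. With the signal filter at the 75th percentile, 1 member (Rps6) was called for diet in WT, 0 for diet in KO, since Rpl12 was not tested there, and 1 on average over the genotypes. With the mean of all probe sets, 2 were called for diet in KO (Rpl12 and Rpl41). On average over the genotypes, 1 was called with no signal filter and 0 with the 3′ over 5′ covariate. The count was 3 without _x_ or _s_ probe sets (Rps24 added, -0.66) and with array weights (Rps2 added). That Rps24 call came from a probe set averaging 5.33, while its brightest, averaging 12.85, gave an averaged difference of 0.12. With 1 mouse left out at a time, the calls ranged from 0 to 1 for diet in WT (Rpl37 without WT mouse 1 on HFD, Rps6 without KO mouse 1 on ND), from 0 to 1 for diet in KO and from 1 to 2 on average; those for genotype and the interaction stayed at 0. Groups that do not overlap were counted under 2 of the planned scalings, a count added after the values were seen. The members whose HFD arrays all lay above their ND arrays in WT went from 21 to 5 with quantile normalization and to 24 with median centring. The shares of all genes were 15.7%, 15.5% and 17.8% in that order. Those whose KO arrays all lay below WT on HFD went from 8 to 3 and 26, with shares of all genes of 8.39%, 8.8% and 14.9%. The cause was not tested. Over all settings the median member difference ran from 0.04 to 0.16 for diet in WT, -0.03 to 0.05 for diet in KO, -0.005 to 0.06 for genotype on ND, -0.17 to -0.03 for genotype on HFD and -0.18 to -0.06 for the interaction. No paired analysis was possible because the groups share no mouse numbers in the labels. Each group holds 3 mice, which limits the precision, and the 12 dim members have SEs of 0.15 to 0.54.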
